A study of Rattus norvegicus with 15 samples.

Results

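Some mammary gland samples of this series carried many more lymph node transcripts than others, and the genes that differed between the 2 kinds of sample are described here. Of the 15 arrays, 4 were taken as lymph-node-rich (C1, C4, C5 and P3) and were set against the other 11 (P1, P2, P7, P9, H1 to H5, C2 and C6), where the letter is the treatment group and the number is the rat's own in the labels. The 4 were chosen by their high log2 values of lymph node transcripts, and the same values are reported below, so the differences between rich and other arrays describe these samples and carry no test. The markers given for the choice were Ccl21, Fcer2, Ccr7, Cd79b and Cd3e, of which 4 were measured and Ccr7 was not analysed here.

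The RNA on each array came from 1 female Lewis rat and was taken from its left inguinal mammary gland. The rats were virgin and 3 months old when the experiment began, and all were killed in metestrus. The 5 pregnancy rats (P) carried sham capsules until they gave birth at full term, after 21 to 23 days, and their pups were removed 4 to 6 hours after delivery so that they did not suckle. The 5 hormone rats (H) carried 1 capsule of the estrogen ethynyl estradiol (100 µg) and 1 of the progestin megestrol acetate (30 mg, spelled megesterol in the labels) for 21 days. The 5 control rats (C) carried sham capsules and were neither pregnant nor treated with hormones. All 15 rats then rested for about 49 days. Between 65.3% and 68.4% of the probe sets were called present on an array, and the number of arrays limits the precision of every value.

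The inguinal mammary fat pad of rodents surrounds a lymph node, which belongs to the immune system and not to the epithelial tree. In a lymph node, B cells gather in follicles around follicular dendritic cells, and T cells occupy the paracortex, where stromal cells make the chemokines Ccl19 and Ccl21. Naive lymphocytes enter from the blood through high endothelial venules. Because whole glands were measured, more cells of a type and more RNA per cell cannot be told apart in any value below.

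Genes of B and T lymphocytes were among those with the largest differences between the rich and the other arrays. A gene, represented by its brightest probe set, was called higher where the difference, with treatment group as a covariate, was at least 2-fold (1 on the log2 scale) and all 4 rich arrays lay above all 11 others. The hormone group held no rich array, so its arrays enter the overlap and the standard error but not the size of a difference. The size comes from the control and pregnancy arrays. The rule for higher held for 243 of 14233 genes, or 1.71%, and the reverse held for 2 genes, or 0.0141%. Counted by probe set, 450 (1.45%) were higher and 2 (0.00644%) were lower. The balance depended on the rule: without regard to size, 863 genes (6.06%) lay above and 338 (2.37%) below all other arrays, and the control arrays alone gave 332 higher (2.33%) and 99 lower (0.696%). The choice of arrays sets these shares in part, so nothing is read from them. The median log2 difference was 1.59 over the 243 genes and -0.05 over all genes. Of the 243 genes, 235 were called present on all 4 rich arrays. On the 11 other arrays, 160 of them were called present throughout, 62 on 1 to 10 arrays and 21 on 0, so that many differences are taken against levels not told from background and their sizes are not exact.

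Ms4a1, which encodes the B cell surface protein CD20, had the largest difference. Its log2 values were 11.37 in C1, 11.58 in C4, 11.28 in C5 and 11.12 in P3, against a lowest value of 5.08, a median of 5.74 and a highest of 9.72 in the other arrays. All 4 rich arrays lay above every other array, of which P9 came closest, and the fitted log2 difference was 4.98 ± 1.09 (standard error of the fit, 15 arrays). Ms4a1 was called present on 4 of 4 rich arrays but on 3 of the 11 others, so no fold is given. Cd79b, a signalling chain of the B cell receptor, had log2 values of 11.04, 11.19, 11.32 and 10.73 in C1, C4, C5 and P3, against 6.49, 6.71 and 9.46 (lowest, median and highest) in the other arrays. The groups did not overlap, with a log2 difference of 3.89 ± 0.65. Cr2, the complement receptor of B cells and follicular dendritic cells, had log2 values of 9.78, 9.49, 9.96 and 9.24 in those rich arrays, against 4.90, 5.27 and 7.96 in the other arrays. All 5 probe sets of Cr2 were higher, by 1.35 to 4.67 on the log2 scale, although they were called present on only 0 to 4 of the 11 other arrays. Fcer2, the low-affinity IgE receptor of follicular B cells and one of the markers, had log2 values of 9.29, 9.10, 9.18 and 8.20 in the rich arrays, against 5.08, 5.31 and 6.84 in the others, and P3 was the lowest of the rich arrays.

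Of 22 measured B cell genes, 12 were higher and 0 were lower, beside 1.71% higher among all genes, and the median log2 difference of the list was 1.10. The 12 included Fcrla (2.25), Cd37 (2.19), the inhibitory receptor Cd22 (2.05), the kinase Blk (1.99) and the adaptor Blnk (1.42). Syk (0.85), Btk (0.86) and Ebf1 (0.34) had smaller positive differences and were not called. Cd24, which epithelial cells also express, went the other way at -0.50. Pou2af1, a transcriptional coactivator of B cells that was listed with plasma cells, had log2 values of 10.05, 9.97, 9.93 and 9.44 in C1, C4, C5 and P3, against 3.96, 5.05 and 8.21 in the others. These values did not overlap, and the difference of 4.69 ± 0.87 on the log2 scale was next in size after that of Ms4a1. LOC641523, described in the deposited table as the immunoglobulin delta heavy chain constant region, differed by 3.68. Immunoglobulin delta marks naive B cells.

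T cell genes formed the list with the highest share of called members, 26 of 33 measured, beside 1.71% of all genes. The median log2 difference of this list was 2.27. The subunits of the CD3 complex, which carries the signal of the T cell receptor, differed by similar amounts, with log2 differences of 3.36 for Cd3d, 3.30 for Cd3g, 3.29 for Cd3e and 3.18 for Cd247. Cd3e had log2 values of 11.57, 11.71, 11.61 and 11.17 in C1, C4, C5 and P3, against 7.56, 8.21 and 9.45 in the other arrays, with no overlap. The transcription factors of naive T cells were higher as well. Lef1 had log2 values of 10.91, 11.08, 11.19 and 10.60 in the rich arrays, against 7.15, 7.59 and 8.67 in the others, and Tcf7 differed by 3.22. Genes of receptor signalling were among the called ones: Cd5 (3.51), Sh2d1a, an adaptor of SLAM receptors (3.39), the adaptor Trat1 (3.31), the phosphatase Ptpn22 (3.23), the kinase Lck (2.54) and Il7r, the receptor of the survival cytokine interleukin 7 (2.20). Cd8a (2.93) and Cd8b (1.78) were higher, whereas Cd4, which rat macrophages also express, overlapped between the groups with a difference of 0.36. Gata3 (-0.17) and Thy1 (-0.77), both expressed outside T cells as well, were negative and were not called.

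**Figure D1:**
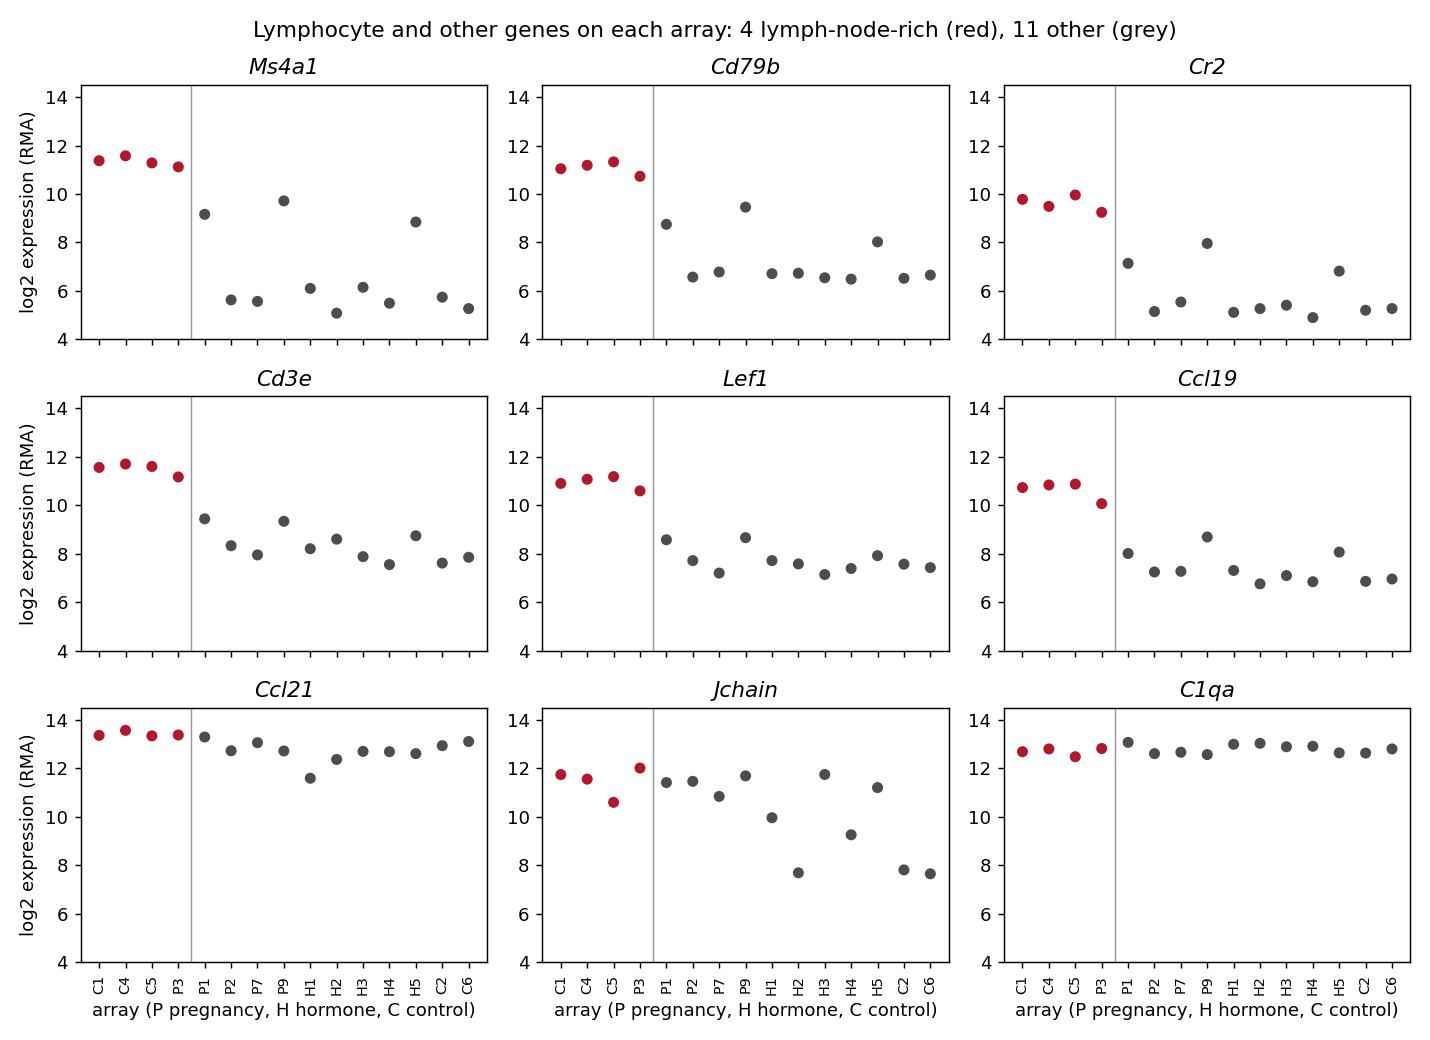
Log2 expression (RMA) of 9 genes on each array, with the 4 lymph-node-rich arrays (red) on the left and the other 11 (grey) on the right of the line. Ms4a1, Cd79b, Cr2, Cd3e, Lef1 and Ccl19 separate the groups and place P9, P1 and H5 above the remaining 8 arrays. Ccl21, Jchain and C1qa are high on arrays of both kinds, and among these Ccl21 separates the groups narrowly.

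The markers that chose the arrays were unequal among themselves, and their values restate the choice. Fcer2, Cd79b and Cd3e had log2 differences of 3.24, 3.89 and 3.29. Ccl21 separated the arrays only narrowly, since its log2 values were 13.36, 13.57, 13.34 and 13.38 in C1, C4, C5 and P3, against 11.59, 12.72 and 13.30 in the other arrays, where P1 reached 13.30. Its difference of 0.41 ± 0.23 was below 2-fold, and Ccl21 was called present on all 15 arrays. Of 19 macrophage genes 0 were called higher, which is near the 1.71% of all genes, so nothing is read from that count. Their median log2 difference was -0.03, beside -0.05 over all genes. C1qa, a complement subunit made by tissue macrophages, had a difference of 0.00. Of genes that would mark other lymphoid organs, Cd1d1 was the one thymus gene measured of 10 listed (-0.14). Among 6 measured genes listed for spleen, Spic, a transcription factor of red pulp macrophages in mice, was higher by 1.34, while Nkx2-5 and Nr5a1 were called present on 0 arrays.

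Lymphoid chemokines split by gene. Ccl19, which guides T cells and dendritic cells into the paracortex, had log2 values of 10.74, 10.85, 10.88 and 10.07 in C1, C4, C5 and P3, against 6.76, 7.25 and 8.70 in the other arrays. No array overlapped and the difference was 3.25 ± 0.42. Cxcl13, the chemokine of B cell follicles, was bright on every array with its brightest probe set, from 12.68 to 12.87 in the rich arrays and from 12.77 to 13.08 in the others, and differed by -0.13. A dimmer probe set of Cxcl13 differed by 1.35 ± 0.67, so the probe sets of this gene disagreed. Its receptor Cxcr5 was called present on 4 of 4 rich arrays and 0 of 11 others, a pattern of 26 genes (0.183%), with a difference of 0.88 that fell short of 2-fold. Of the 13 measured genes of the list, 5 were called higher: Ccl19, Ccr6 (2.77), Cxcr3 (1.30), Ccl22 (1.16) and Cxcr4 (1.14), receptors or ligands that position lymphocytes and dendritic cells. The median log2 difference of the list was 0.60, and 1.71% of all genes were called higher.

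The cytokines that build lymphoid tissue were higher as well. Ltb, which encodes lymphotoxin beta, had log2 values of 11.58, 11.58, 11.50 and 11.23 in C1, C4, C5 and P3, against 7.97, 8.41 and 9.75 in the others, a difference of 2.84 ± 0.38. Tnfsf11, the RANK ligand needed for lymph node formation and also a signal to mammary epithelium, had log2 values of 7.15, 7.33, 7.05 and 7.13 in those rich arrays, against 4.02, 4.27 and 5.73 in the others, a difference of 2.73 ± 0.30. Neither gene overlapped, and P3 was not the lowest rich array for Tnfsf11. Lta differed by 1.09, and these were the 3 called of 10 measured, beside 1.71% of all genes. The receptors Ltbr (-0.29) and Tnfrsf11a (-0.13) were not called. Tnfrsf14, a receptor of lymphotoxin-like ligands that was in none of the lists, differed by 4.06 ± 0.60.

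Genes of lymphocyte traffic differed from one another. Of 13 measured genes of homing and high endothelial venules, 3 were higher, beside 1.71% of all genes, with a median log2 difference of 0.34. Itgb7 (log2 difference 1.41), an integrin subunit of lymphocytes, and S1pr1 (1.14), the receptor that lymphocytes use to leave a node, were higher. On the vessel side, Madcam1 was called present on 0 arrays, Selp (-0.20) and Sele (-0.45) were not called, and Glycam1, made both by high endothelial venules and by mammary epithelium, overlapped between the groups. Glycam1 had log2 values of 13.03 to 13.23 in the rich arrays, against 9.01 to 14.27 in the others. Lymphatic endothelial genes gave 0 of 10 called higher, near the 1.71% of all genes, with a median of -0.13 beside -0.05 over all genes. LOC691926, described in the deposited table as similar to Stabilin-2, a scavenger receptor of sinus endothelium, is outside that list and was higher. Its log2 values were 8.53, 8.34, 8.19 and 8.86 in C1, C4, C5 and P3, against 5.58, 6.09 and 6.99 in the others, and it was called present on 4 of 4 rich arrays and 0 of 11 others.

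Short windows of promoters are shown for genes of these groups, because their members were higher together and motifs of lymphoid transcription factors can be looked up in them. Of the 243 genes, 177 had a RefSeq promoter in the GRCr8 build (250 bases before to 50 after the start site) and 66 had none. Each line holds a stretch around 1 match, in the direction of the gene, with the match in capitals. Ccr6 (chr1:55046152-55046279, minus strand) holds the octamer ATGCAAAT of POU factors on the opposite strand. Cd5 (chr1:216811233-216811360, minus strand) holds the ETS motif GAGGAAGT, Sh2d1a (chrX:126238959-126239085, plus strand) the RUNX motif AACCACA, and Ltb (chr20:3634010-3634139, minus strand) a motif of NF-kB, written in its line as read on the strand of the gene. The first capital lies at position -91 from the start site in Ccr6 and Cd5, -181 in Sh2d1a and -25 in Ltb.
Ccr6: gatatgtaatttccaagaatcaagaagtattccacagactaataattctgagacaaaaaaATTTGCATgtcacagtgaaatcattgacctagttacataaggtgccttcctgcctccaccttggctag
Cd5: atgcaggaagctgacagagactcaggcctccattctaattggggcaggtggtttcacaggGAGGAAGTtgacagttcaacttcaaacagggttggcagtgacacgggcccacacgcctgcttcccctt
Sh2d1a: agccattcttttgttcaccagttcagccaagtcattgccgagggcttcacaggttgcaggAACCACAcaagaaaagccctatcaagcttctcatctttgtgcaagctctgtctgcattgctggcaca
Ltb: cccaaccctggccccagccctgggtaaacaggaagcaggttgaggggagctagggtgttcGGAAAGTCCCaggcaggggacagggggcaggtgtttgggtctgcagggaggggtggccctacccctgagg

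Counted on both strands, AACCACA was found in 22 of the 177 promoters (12.4%) and in 3.85% of 11234 promoters of all genes, and GAGGAAGT in 16 (9.04%) and in 2.55% of all. The genes with AACCACA included Lck, Cd2, Il7r, Ptpn22, Runx3 and Itgb7, and those with GAGGAAGT included Icos, Cd37, Cd53, Vav1 and Gimap4. The other motifs differed from their shares of all promoters by fewer percentage points. ATGCAAAT was found in 4 (2.26%, against 1.44% of all), the motif of NF-kB in 1, Ltb (0.565%, against 0.089%, a larger ratio that rests on 1 promoter), CAGGTG, a site of E proteins, in 40 (22.6%, against 18.6%), and CACGTG, a site of MYC, in 11 (6.21%, against 8.98%). The motif of NF-kB with 2 of its middle bases free, which includes the stricter form, was found in 5 (2.82%, against 1.68%). The motifs were chosen after the genes were known, a match is not a bound site, and no test was made.

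Plasma cell, cytotoxic and dendritic cell genes were mixed. Of 10 measured plasma cell genes 2 were higher, Pou2af1 among them, with a median log2 difference of 0.73. Jchain, the joining chain of secreted immunoglobulins, had log2 values of 11.75, 11.56, 10.60 and 12.02 in C1, C4, C5 and P3, against 7.65, 10.85 and 11.75 in the other arrays. The groups overlapped, because Jchain was also high in H3, P9 and other arrays outside the rich set, and low in the 2 other control arrays. Mzb1, a plasma cell chaperone (1.83), and Igha by its brightest probe set (1.12) overlapped too, while Xbp1 (-0.30), Sdc1 (-0.62) and Fkbp11 (-0.66) were negative. Probe sets assigned to Igha ranged from 0.09 to 4.53, and the one at 4.53 was higher without overlap. Hybridisation between close relatives among immunoglobulin genes was not resolved. Prf1, which encodes the pore-forming protein of cytotoxic cells, had log2 values of 9.52, 9.55, 9.68 and 9.31 in the rich arrays, against 6.28, 7.02 and 7.73 in the others. Its partners in the granule did not follow: Gzma differed by -0.58 and Gzmb by -0.07, with overlap in both. Of 16 cytotoxic and natural killer genes 6 were higher, beside 1.71% of all genes, with Klrd1 (1.59), Il2rb (1.45) and Eomes (1.05) among them. Of 13 dendritic cell genes 2 were higher, Ccl17 (2.24) and Lamp3 (1.83), both of mature dendritic cells, whereas Itgax (-0.22) and Zbtb46 (-0.17) were not called.

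Antigen presentation genes differed little in size but mostly in 1 direction. Ciita, the master regulator of MHC class II, was the 1 gene called of 18 (1.49), and 17 of the 18 differences were positive with a median of 0.36. RT1-Ba differed by 0.78 and Cd74, the invariant chain, by 0.62, and 8 of the 18 genes lay higher in all 4 rich arrays than in all 11 others. Such a position without regard to size was reached by 6.06% of all genes. Germinal centre genes gave 1 of 8 (Irf8, 1.82), with Bcl6 at 0.40. Proliferation genes gave 1 of 29 (Mcm3, 1.13), with Mki67 at 0.07 and a median of -0.02. Among all genes 1.71% were called higher, so little is read from 1 called gene in a list.

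**Figure D2:**
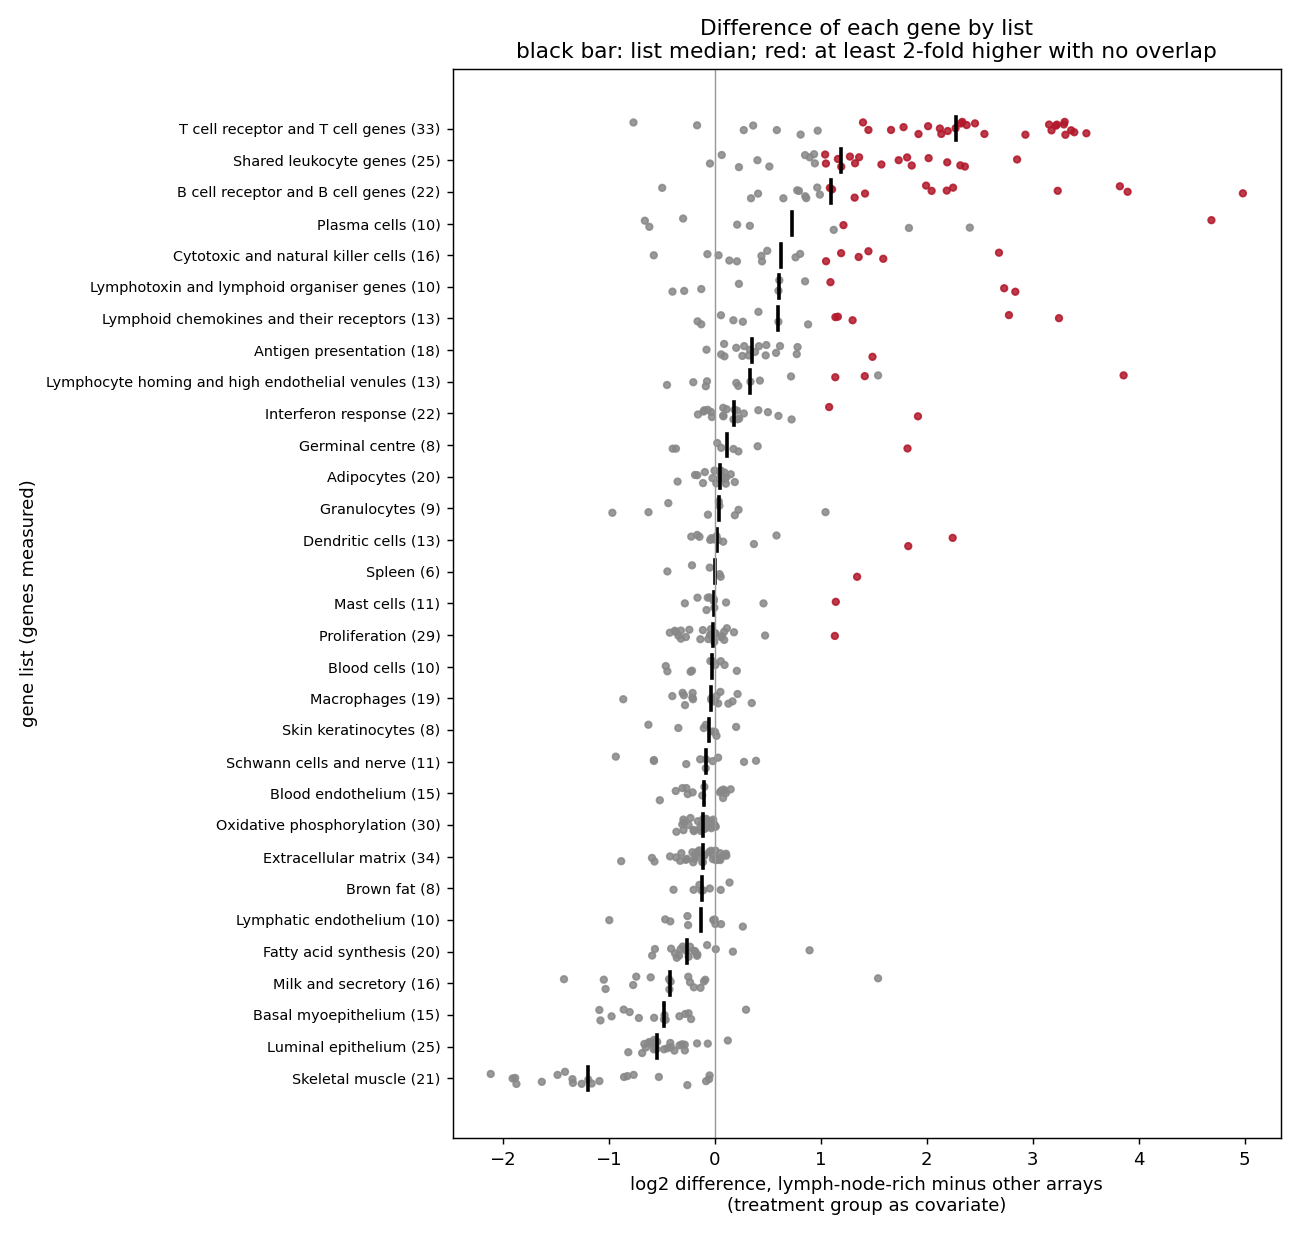
Log2 difference of each gene, lymph-node-rich minus other arrays with treatment group as a covariate, by gene list ordered by its median (black bar); red points are genes at least 2-fold higher without overlap. The T cell, shared leukocyte and B cell lists have medians of 2.27, 1.19 and 1.10, and the skeletal muscle list has the lowest median, -1.19.

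None of the genes listed for epithelium, milk or adipocytes was called, although most differences in the epithelial and milk lists were negative. Among all genes 1.71% were called higher and 0.0141% lower, so nothing is read from the absence of a call. The luminal epithelium list had a median of -0.54, with 24 of 25 differences negative and 0 called. Krt8 had log2 values of 11.54, 11.10, 11.89 and 11.57 in C1, C4, C5 and P3, against 10.95, 12.00 and 12.57 in the other arrays, with overlap. The basal list had a median of -0.48 and the milk list of -0.42, and the adipocyte list of 0.05, with 13 of 20 differences positive. Elf5, a transcription factor of luminal progenitors and alveolar cells, differed by -0.82 and Krt14 by -1.08, with overlap in both. Skeletal muscle genes differed most, with 21 of 21 negative and a median of -1.19. The level of that list, relative to the mean of the 15 arrays, ranged from -1.66 to -0.22 in the rich arrays, against -1.38 to 3.72 in the others, where P7 stood at 1.82, P9 at 2.26 and H4 at 3.72. The part of muscle transcripts in the negative differences was not tested. Without those 3 arrays, 254 genes were higher and 4 were lower.

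The 2 genes called lower were Tnmd, a membrane protein of tendon and adipose tissue, and C8h11orf65. Tnmd had log2 values of 7.13, 7.17, 6.97 and 7.35 in C1, C4, C5 and P3, against 7.37 to 8.96 in the other arrays, so that P3 lay just below the lowest other array. C8h11orf65 had a log2 difference of -1.02. The next by size did not reach 2-fold, although their arrays did not overlap, as was the case for 338 genes below the other arrays in any size (2.37%): Fbln1, a matrix glycoprotein (-0.88), the endothelin receptor Ednra (-0.83), Plekhb1 (-0.82), Mustn1 (-0.75), Egflam (-0.74), Hsd11b1, which reactivates glucocorticoids (-0.71), Me3 (-0.69), the endothelin receptor Ednrb (-0.67), the Notch target Hey1 (-0.67), Rapsn (-0.66), Fkbp11 (-0.66), Plk2 (-0.66) and Rgs4 (-0.66). This count was unstable. It was 0 without treatment group as a covariate or without C2, 16 without P3 and 99 within the control arrays.

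The rich arrays were not equal. P3 was the lowest of the 4 for 209 of the 243 genes (86.0%), and the mean log2 value of the 243 genes was 9.84 in C1, 9.93 in C4, 9.79 in C5 and 9.42 in P3. Nearest outside the set were P9 (8.42), P1 (8.39) and H5 (8.07), and the remaining 8 arrays lay between 7.60 and 7.84. P9, P1 and H5 were also the only other arrays with a present call for Ms4a1. All 3 lay above the remaining 8 arrays for 93 of the 243 genes (38.3%), beside 178 of all genes (1.25%). These 3 arrays were picked by values of the same 243 genes, Ms4a1 among them, so this share restates the choice. By the means above, the border between rich and other arrays fell inside a range of lymphocyte transcript levels, with 3 arrays between the extremes.

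The highest array was often a different one for B and for T cell genes, while P3 was most often the lowest rich array for both. Among the 12 higher B cell genes, C5 was the highest rich array for 8, P3 the lowest for 11, and P9 the highest other array for 10. Among the 26 higher T cell genes, C4 was the highest rich array for 22, P3 the lowest for 23, and P1 the highest other array for 18. The 16 higher genes shared by leukocytes, of 25 measured, such as Ptprc (2.36) and Coro1a (2.32), had C4 highest for 14 and P3 lowest for 16. The B cell list levels of C1, C4 and C5 lay close together, at 1.26, 1.21 and 1.29. These counts describe single arrays, genes of a list are not independent, and no difference in order was tested.

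The difference could be read inside 2 treatment groups, because control and pregnancy each held rich and other arrays. Within the controls (C1, C4 and C5 against C2 and C6), 332 genes were at least 2-fold higher without overlap (2.33%) and 99 lower (0.696%). P3 was set against P1, P2, P7 and P9, arrays that those counts did not use, although P3 had itself been chosen for lymph node transcripts. For 319 of the 332 genes (96.1%), P3 lay above all 4 other pregnancy arrays, beside 17.5% of all genes, with a median log2 difference of 0.93 in pregnancy and 1.64 in control. For the 99 lower genes the share was 28.3%, beside 22.7% of all genes. Of the 243 genes, 239 differed more within control than within pregnancy, where P1 and P9 stood among the other arrays. Ms4a1 differed by 3.60 within pregnancy and by 5.90 within control, and Cd3e by 2.40 and 3.89.

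**Figure D3:**
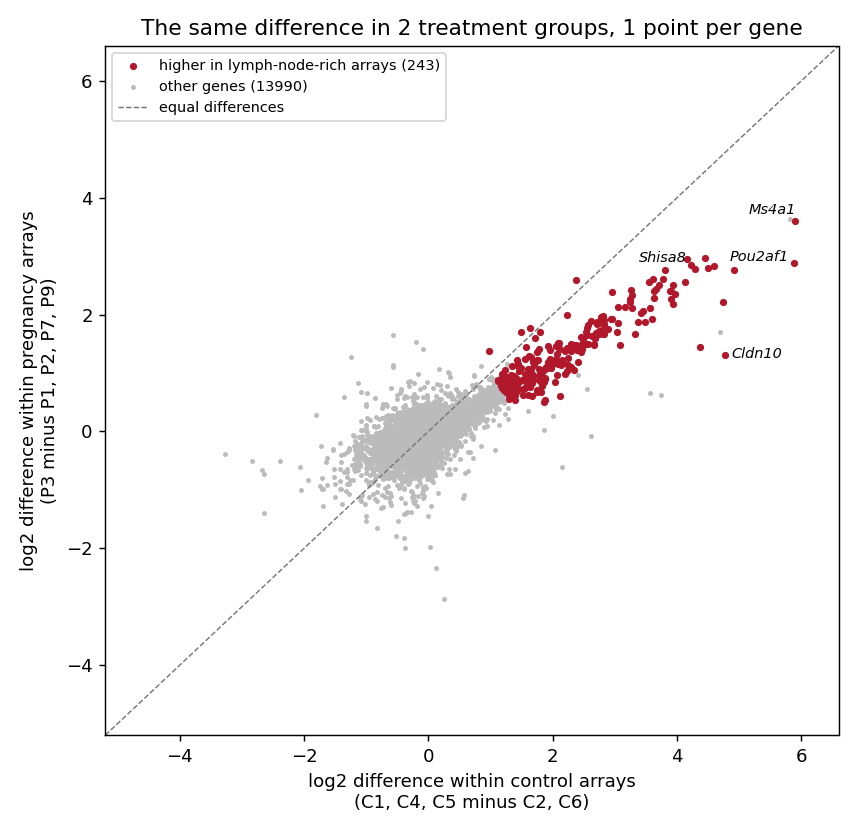
Log2 difference of each gene within the control arrays (x axis, C1, C4 and C5 minus C2 and C6) and within the pregnancy arrays (y axis, P3 minus P1, P2, P7 and P9), with the 243 higher genes in red. Of the red points 239 lie below the dashed line of equal differences.

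Rich arrays were unevenly spread over the treatment groups, 1 of 5 in pregnancy, 0 of 5 in hormone and 3 of 5 in control. A two-sided exact Freeman-Halton test gave p = 0.231, where the smallest p that 4 rich arrays allow is 0.011. With P3 left out of the rich set the exact p was 0.0659, which is the smallest that 3 rich arrays allow.

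The labelled comparisons were tested with limma over all probe sets, and the higher genes were followed in them. Pregnancy minus control called 61 of 31042 probe sets at an adjusted p under 0.05 (0.197%), of which 36 rose and 25 fell, and hormone minus control called 9 (0.029%), of which 3 rose and 6 fell. None of the 61 or the 9 was among the probe sets higher in the rich arrays, which were 1.45% of all. Of the 243 genes 0 were called in either comparison, beside 38 and 5 of all 14233 genes. The 243 genes were picked for a wide spread within the control and pregnancy groups, which works against a call. Nothing is therefore read from these counts of 0. The median log2 difference of the 243 genes was -0.62 for pregnancy minus control and -1.04 for hormone minus control, beside 0.00 and 0.03 over all genes. Without the 4 rich arrays these medians were 0.33 and 0.19, beside -0.02 and -0.01 over all genes, so that the sign turned in both comparisons. In the T cell list the mean turned to 0.47 for pregnancy, against -0.67 with all arrays, and to 0.19 for hormone, against -1.27. The B cell list gave 0.47 and 0.16 without the rich arrays, against -0.46 and -0.99 with them. The 2 comparisons share the control arrays, and leaving out the 3 rich controls lowers the control mean of these genes by construction.

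**Figure D4:**
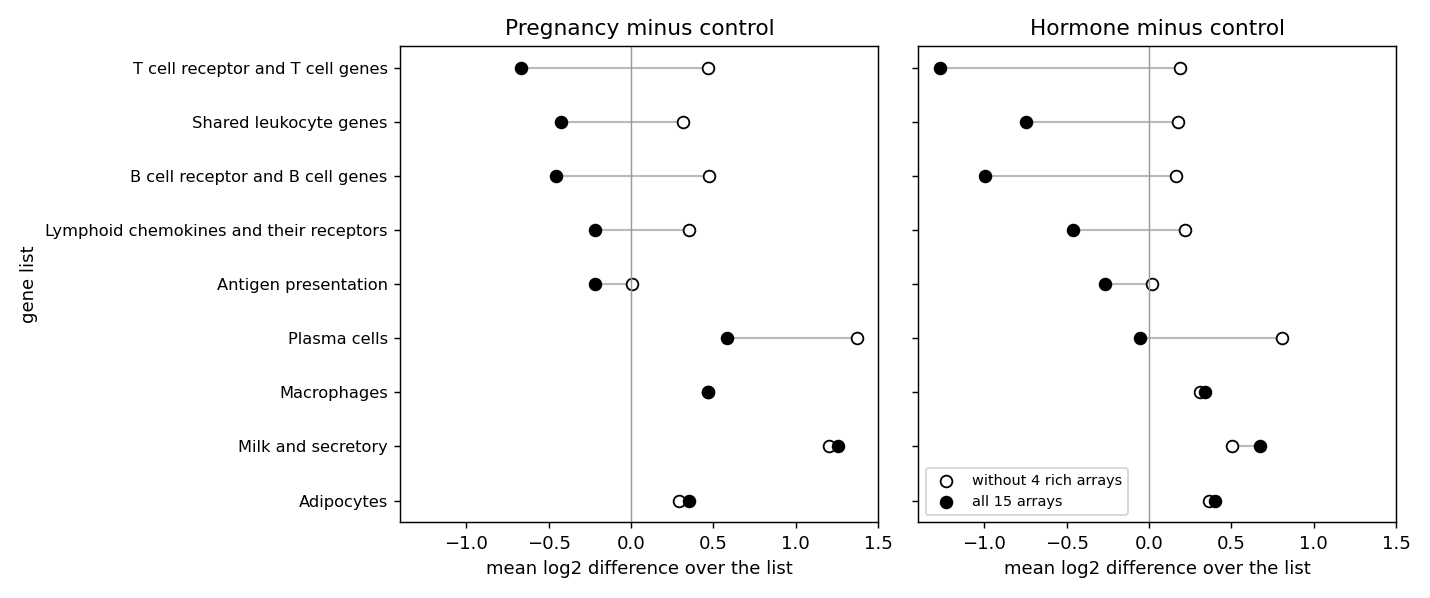
Mean log2 difference over each gene list for pregnancy minus control (left) and hormone minus control (right), with all 15 arrays (filled) and without the 4 lymph-node-rich arrays (open). The T cell, shared leukocyte, B cell and chemokine lists change sign, and the macrophage, milk and adipocyte lists keep theirs.

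The differences of the lymphocyte genes Cd3e, Ms4a1 and Jchain given here did not pass the test. Cd3e differed by -0.82 ± 0.83 for pregnancy minus control (adjusted p = 0.576, limma) and by -1.87 ± 0.83 for hormone minus control (adjusted p = 0.225, limma). Without the rich arrays its pregnancy difference was 1.03 ± 0.43 (adjusted p = 0.296, limma). Ms4a1 differed by -2.71 ± 1.44 for hormone minus control (adjusted p = 0.289, limma), with 0.83 ± 1.23 without the rich arrays. Jchain, which the rich arrays did not separate, differed by 1.61 ± 0.86 for pregnancy minus control, and by 3.62 ± 0.86 without them (adjusted p = 0.167, limma). The macrophage list had a mean of 0.47 for pregnancy minus control both with and without the rich arrays. Of its 19 genes, 5 were called with all arrays (Itgam, Gpnmb, Trem2, Mpeg1 and Cd5l), beside 0.267% of all genes, and 1 (Gpnmb) without the rich arrays, beside 0.0351% of all genes.

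Leaving out the rich arrays changed which probe sets passed. Pregnancy minus control then called 10 probe sets, 3 of them shared with the 61, and hormone minus control called 0 in limma, with 2177 at an unadjusted p under 0.05. All 61 and all 9 kept their sign, with a median absolute log2 difference of 0.52 without the rich arrays against 0.59 with them for pregnancy, and of 0.47 against 0.61 for hormone. Of the 10, Gpnmb, a glycoprotein of lipid-loaded macrophages, differed by 1.36 ± 0.17 and had differed by 1.32 with all arrays. Mmp9, a gelatinase of neutrophils and macrophages, became a call only without them. Its brightest probe set had log2 values of 6.98, 7.56, 7.07 and 7.27 in P1, P2, P7 and P9, against 4.95 and 4.98 in C2 and C6, a difference of 2.25 ± 0.15 (adjusted p = 0.0005, limma). The rich arrays lay near the pregnancy values, at 7.34 in C1, 6.71 in C4, 7.28 in C5 and 6.62 in P3, and the hormone arrays lay between 5.06 and 5.48. With all 15 arrays Mmp9 differed by 0.84 ± 0.42 (adjusted p = 0.248, limma). The control arrays left out were those with high Mmp9 values. The call therefore rests on which controls were kept, and nothing about pregnancy is read from its p-value.

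The other probe sets of the 10 named Mmp9 once more, Polr1a, Atp1b1, Rpp25, Gria3 and, for 2 of them, no gene. Ccl22 completed the set and was the 1 gene among them that was also higher in the rich arrays. It had log2 values of 7.11, 7.21, 7.12 and 7.04 in P1, P2, P7 and P9, against 6.39 and 6.41 in C2 and C6. The difference was 0.72 ± 0.10 (adjusted p = 0.0383, limma). Ccl22 was called present on 0 of these arrays, so those levels were not told from background. With all 15 arrays it differed by -0.07 (adjusted p = 0.91, limma). Leaving out the rich controls, where Ccl22 was high, lowers its control mean by construction, so nothing is read from this call. Only 2 control arrays remained without the rich arrays. With rich status as a covariate in place of leaving arrays out, 9 and 0 probe sets were called, and Mmp9 and Ccl22 were not among them (adjusted p = 0.151 and 0.233, limma). The counts also depended on single arrays. Pregnancy minus control called 1430 probe sets without C2 and 506 without C5, but 3 without C4, P1, P7 or P9, 5 without H4, 7 without C1, 13 without H1, 21 without H3, 34 without H5 and 37 without H2. Hormone minus control called 1884 without C2 and 33 without C6, 6 without P3 or P9, 2 without H5, 1 without C1, P1, P7, H2 or H3, and 0 without C4, C5, H1 or H4.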

How the data were processed

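Per the labels, 80 ng of total RNA from each of 15 glands was labelled with NuGEN Ovation V2 reagents, and every rat had an Affymetrix array of its own. The authors deposited RMA log2 values per probe set, a MAS5 detection p-value and a detection call (present, marginal or absent). GCOS, RMA, MAS5 and affy are named in the submitters' processing notes, while the sources used here give neither versions, roles nor a genome build. The deposited log2 values were used unchanged, and 15 per-sample columns of 5 arrays that match no labelled sample were not used.

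The 57 AFFX control probe sets of 31099 were set aside, which left 31042. Symbols were updated by Entrez identifier for 22672 and kept from the deposited table for 697, and 7673 named no single gene. Each of 14233 genes is represented by its brightest probe set. The rich-minus-other difference and its standard error came from a linear model with a mean per treatment group, tested on simulated data. Gene lists (605 symbols, 514 measured) and the 4 rich arrays were chosen with earlier results of these data known. A list's level is the mean of its genes relative to the 15 arrays. Labelled groups were compared in limma 3.58.1 under R 4.3.3 (residual df 12, prior df 2.70), two-sided, with Benjamini-Hochberg adjustment over 31042 probe sets. Python 3.11.15, pandas 2.3.3, numpy 2.4.6 and matplotlib 3.10.9 made the tables and plots. The labels do not say that rats share litters, so a p-value measures the spread between these 15 rats. Equal numbers in the groups were not taken to pair the arrays. Of 9 same-numbered pairs, 4 correlated above 0.1, but pairs of unlike number were not compared, so pairing was not settled.

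Named genes followed a rule: the 25 largest increases among called genes present on all 4 rich arrays, the 15 largest decreases without overlap that were present on at least 6 of the 11 other arrays (said where they did not reach 2-fold), at most 6 members of each list by size, the markers and members that went against their list. Every other gene named, among them LOC691926, Tnfsf11, Mmp9, Gpnmb and the genes of promoters and families, was chosen after its values were seen. Alternatives were no covariate, each treatment group alone, median centring, a filter on present calls, other probe sets, array weights, a replicate block, and leaving out arrays.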

Additional observations from a re-analysis of the deposited data

Results flagged for a closer look

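Over 67 lists and genes, 268 checks for an array far from the others of its group found 17, where chance gives about 1 in 20. The checks were not independent and included markers that chose the rich arrays, so nothing is read from this count. H5 stood high among the hormone arrays for 4 B cell genes: Ms4a1 (log2 value 8.843, against 5.083 to 6.149 in the other hormone arrays), Cd79b (8.024, against 6.486 to 6.73), Cr2 (6.817, against 4.9 to 5.412) and Fcer2 (6.275, against 5.077 to 5.308).

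P3 stood high among the pregnancy arrays in the list level of homing and high endothelial venule genes (0.3305, against -0.1582 to -0.0381) and of dendritic cell genes (0.2909, against 0.0015 to 0.0658). Since P3 was chosen for high lymph node transcripts, these flags restate that choice in part. H4 was low among the hormone arrays for shared leukocyte genes (-0.5439, against -0.3426 to -0.2733) and high for brown fat genes (0.5287, against -0.1149 to -0.0307). P9 was high among the pregnancy arrays for skin keratinocyte genes (1.403, against -0.318 to 0.0317).

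Among the 4 rich arrays, P3 was low for interferon response genes (0.0514, against 0.2227 to 0.2539), C5 was high for basal genes (0.0605, against -0.4151 to -0.3383) and low for the plasma cell gene Mzb1 (8.238, against 8.827 to 8.896), and C4 was high for Ccl21 (13.57, against 13.34 to 13.38). The skin list was high in C1 (0.1406), both among the rich arrays and among the controls. The blood list was low in C5 (-0.3154), both among the rich arrays and among the controls.

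The granulocyte list ran opposite ways in the treatment groups. P3 minus the other pregnancy arrays gave -0.504, and the rich minus the other control arrays gave 0.2329, with the arrays of each kind apart in both groups. The difference between the groups was not tested.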

How the results depend on the processing

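The count of higher genes was 159 in the pregnancy arrays alone, 220 to 315 when 1 array was left out, and stayed within 1.5 times 243 under the other alternatives. The count of lower genes was 0 without the covariate, 99 in control and 40 in pregnancy arrays alone, 4 without the 3 muscle-rich arrays, 4 without P1, P9 and H5 (chosen after seeing the data), and 0 to 16 when 1 array was left out. List medians in control arrays alone were 2.568 for T cells, 1.315 for B cells and 0.7279 for chemokines, and in pregnancy arrays alone 1.828, 0.8578 and 0.4283. With 1 array left out they lay between 2.113 and 2.568, 1.03 and 1.315, and 0.4797 and 0.7279. The most variable probe set per gene gave 0.8802 for chemokines. Pregnancy minus control called 10 without the rich arrays, 9 with rich status as a covariate, 1154 with array weights, and 3 to 1430 when 1 array was left out. Hormone minus control called 0, 0, 1374, and 0 to 1884. The cause was not tested. Of 984 values of 41 single genes under the alternatives, 814 moved by less than the standard deviation among the 4 rich arrays. Another 170 moved by more with the direction kept, and 0 reversed. Leaving out a hormone array cannot change the fitted difference of a gene, and neither can the filter on present calls. The values under those alternatives are among the 814 by construction and show no stability.

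The replicate number as a block gave 228 higher and 4 lower genes, and 0 calls in limma for pregnancy and for hormone minus control (3740 and 7521 probe sets at an unadjusted p under 0.05). The numbers were not taken to pair the arrays, and whether they do was not settled. The exact test of rich arrays over groups gave p = 0.0659 with P3 not counted as rich. RMA values carry no counts, so 5 arrays per group set the precision.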

Other observations

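Of the 243 higher genes, 162 were in none of the gene lists, and some families among them, chosen after their values were seen, can be named. The share of higher genes among all genes was 1.71%. Of 5 measured Gimap genes, GTPases of lymphocytes, 4 were higher: Gimap4 (log2 difference 1.74), Gimap1 (1.16), Gimap5 (1.10) and Gimap6 (1.01). Of 29 Arhgap genes, which encode GTPase-activating proteins, 8 were higher with Arhgap45 first (1.86), and the family's median was 0.05. Both Rasgrp1 (1.47) and Rasgrp2 (1.49), activators of Ras in lymphocytes, were higher, of 4 Rasgrp genes measured. Transcription factors outside the lists included Ets1 (1.84), Stat4 (2.14) and Foxo1 (1.04).

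Some higher genes are better known from other organs. Pde6h, a phosphodiesterase subunit of cone photoreceptors, differed by 2.50 and was called present on 4 of 4 rich and 0 of 11 other arrays. Tnn, a tenascin (1.80), had the same pattern of present calls. Nphs1, the nephrin of kidney podocytes, differed by 1.49, Havcr1, an injury marker of kidney tubules, by 1.74, and Reg3g, an antimicrobial lectin of the gut, by 1.72. Genes called present on all 4 rich arrays and on 0 of the others numbered 26 (0.183% of all genes), and the reverse pattern was found for 0 genes. Among the higher probe sets, 103 named no gene.

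Cldn10, a tight junction claudin, was higher by 3.39 with its brightest probe set, where the groups hardly separated (12.15 to 12.94 in the rich arrays, 7.31 to 12.05 in the others), and differed by -0.88 with its other probe set. Grem1, an antagonist of bone morphogenetic proteins, had log2 values of 8.50, 8.41, 7.77 and 7.62 in C1, C4, C5 and P3, against 4.35, 4.90 and 6.20 (lowest, median and highest) in the other arrays. Mx1 (1.92) and Gbp4 (1.08) were the 2 interferon response genes called of 22, beside 1.71% of all genes.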
